A study of Mus musculus with 22 samples.

Results

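Acute phase protease inhibitors are plasma proteins that the liver makes in greater amounts during inflammation and that bind and block proteases in blood and tissue. The genes considered here are Serpina3n, Serpina3m, Serpina3k and Serpina3g, which are mouse counterparts of human antichymotrypsin, the inter-alpha-trypsin inhibitor heavy chains Itih1, Itih2, Itih3 and Itih4, the broad protease trap A2m (alpha-2-macroglobulin), and Ambp, the precursor of bikunin and alpha-1-microglobulin. Members were those of 10 named genes that have a probe set assigned to their symbol alone, and 7 of the 10 were measured, with 1 probe set each, among 18194 genes on the array. Serpina3m, Serpina3k and Serpina3g had no probe set assigned to them alone in the annotation used, and their levels were not analysed here.

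Serpins are suicide substrates: a protease cuts an exposed loop of the serpin and is then held in a covalent complex. In the inter-alpha-trypsin inhibitor family, bikunin carries the inhibitory domains and is linked to heavy chains through chondroitin sulfate, and the heavy chains can be handed over to hyaluronan in inflamed tissue. Alpha-2-macroglobulin encloses proteases of many classes and is cleared by the receptor Lrp1. Interleukin-6, acting through STAT3 and C/EBP factors, is the classical inducer of such genes in hepatocytes, and in rodents A2m is the member best known for low resting levels.

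Liver RNA came from 22 male C57BL6 mice, 8 weeks old, for which the labels name no transgene or deletion. Diclofenac sodium, a non-steroidal anti-inflammatory drug, was injected intraperitoneally at 30 mg/kg each day, controls received saline, and livers were taken on day 1, day 3 or day 14. There was 1 Affymetrix Mouse 430 2.0 array per liver, with 3 diclofenac and 3 saline livers on day 1, the same on day 3, and 5 of each on day 14, whereas the labels state 5 mice per group. Values are MAS5 array signals on a linear scale, and differences are given on the log2 scale as diclofenac minus saline of the same day, with the standard error of the limma model. A gene passed when its p-value, adjusted by Benjamini-Hochberg over all genes tested, lay under 0.05.

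The tissue is labelled liver, and 10 of 10 hepatocyte markers were measured, with summed signals of 369764 to 409333 in the saline livers of day 1. These sums were 553217 to 731321 in the saline livers of day 14, so that member levels are not compared between days. For the mean of the 3 days no hepatocyte marker passed with higher signal (limma). G6pc, the glucose-6-phosphatase of gluconeogenesis, was the 1 of 10 that fell, by 0.82 on the log2 scale (adjusted p = 0.0403, limma). Among all 13340 genes tested, 59 passed with lower signal. The median signal of an array was 75.2 to 89.9, and the number of arrays limits the precision. Since each array holds RNA of whole liver, fewer cells of a type and less RNA per cell cannot be told apart.

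Sequences upstream of Serpina3n, Itih4 and Itih1 are shown because Serpina3n and Itih4 rose with diclofenac whereas Itih1, which lies in a cluster with Itih3 and Itih4 on chromosome 14, did not pass the test. They are RefSeq sequences of GRCm38.p6, read 5′ to 3′ on the strand of the gene, within 250 bases before the start used for the promoter and outside the annotated gene. Capitals mark TTCNNNGAA, the letters of a STAT site, and TTNNGNAA, letters of a C/EBP site searched on both strands. The first motif reads the same on both strands. The Serpina3n sequence spans chr12:104406458-104406645 on the plus strand, the Itih4 sequence chr14:30886226-30886475 on the plus strand and the Itih1 sequence chr14:30943290-30943539 on the minus strand.
Serpina3n: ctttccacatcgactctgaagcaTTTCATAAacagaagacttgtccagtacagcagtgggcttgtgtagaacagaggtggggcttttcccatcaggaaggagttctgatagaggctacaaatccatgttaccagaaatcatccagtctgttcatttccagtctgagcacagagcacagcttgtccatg
Itih4: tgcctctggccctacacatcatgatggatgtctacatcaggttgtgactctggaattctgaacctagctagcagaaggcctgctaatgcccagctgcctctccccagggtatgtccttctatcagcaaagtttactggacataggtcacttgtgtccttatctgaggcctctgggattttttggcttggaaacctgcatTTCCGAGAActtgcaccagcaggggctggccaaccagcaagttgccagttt
Itih1: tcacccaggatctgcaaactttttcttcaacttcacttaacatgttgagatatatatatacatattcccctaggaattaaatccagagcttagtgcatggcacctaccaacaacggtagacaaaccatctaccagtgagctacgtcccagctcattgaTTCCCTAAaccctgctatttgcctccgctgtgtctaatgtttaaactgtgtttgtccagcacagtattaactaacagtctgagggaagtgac

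Of the members, 7 had a 250-base window in the promoter table, among them 6 of the measured genes. The letters TTCNNNGAA were found in the windows of Itih4, 51 bases before the start as TTCCGAGAA, and of the unmeasured Serpina3g, 33 bases before the start as TTCCCAGAA. Among 32851 promoter windows of the same length, 7.02% held these letters. TTNNGNAA was found in the windows of Serpina3n, Serpina3g, Itih1 and Itih2, and in 36.8% of all windows. The upstream Serpina3n match stands in the sequence above, and a further match, TTTCCTAA at 56 bases before the promoter start, lies inside the annotated gene. No matches overlapped one another, and Itih3 and Ambp held neither motif in this window. A match is a description of letters and was not tested as a binding site.

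Averaged over the 3 days, 3 of 7 measured members rose and none fell: Serpina3n by 1.86 (standard error 0.22, adjusted p = 0.000149, limma), Itih3 by 0.76 (0.12, adjusted p = 0.0017) and Itih4 by 0.73 (0.12, adjusted p = 0.00331) on the log2 scale. These differences are 3.62-fold, 1.70-fold and 1.66-fold. Among all 13340 genes tested in that comparison, 1.68% passed in either direction and 1.24% passed with higher signal. The median log2 difference was 0.73 over the 7 members and -0.005 over all genes.

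On no single day did a member pass, with 0 of 7 on each of days 1, 3 and 14, against 0.0%, 0.202% and 0.0% of all genes (limma). At an unadjusted p under 0.05 there were 5, 4 and 5 of the 7 members, against 1674 of 12884, 1397 of 12884 and 1287 of 11884 genes tested, on days 1, 3 and 14. When diclofenac day 1 replicate 2 and diclofenac day 14 replicate 3 were left out, a choice made after seeing the data, 0, 4 and 3 members passed on days 1, 3 and 14 (limma). Over all genes, 0 of 12751 (0.0%), 178 of 12751 (1.4%) and 123 of 11742 (1.05%) then passed, so that calls rose in general and not for the members alone. These livers stand apart and are described with A2m.

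All diclofenac livers lay above all saline livers of the day for 3 of 7 members on day 1, 4 of 7 on day 3 and 4 of 7 on day 14, against 8.23%, 10.8% and 2.18% of all genes tested. Serpina3n, Itih3 and Itih4 were separated in this way on each of the 3 days, as were 57 of 13340 genes (0.427%). Ambp was separated on day 3 and Itih1 on day 14.

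**Figure D1:**
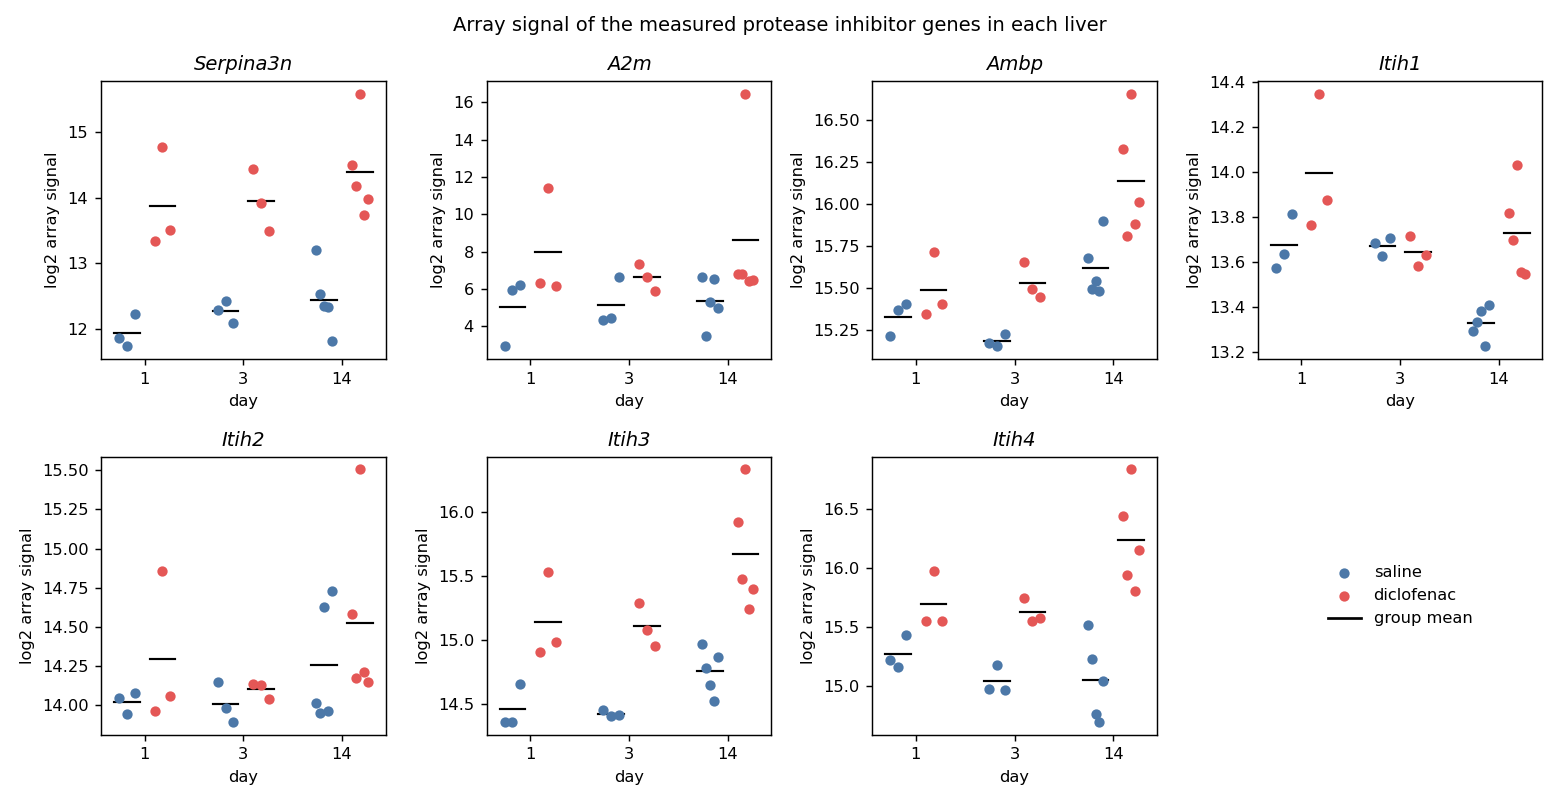
Log2 array signal (y axis) in each liver on days 1, 3 and 14 (x axis) for the 7 measured members, with saline livers in blue, diclofenac livers in red and black bars at group means. Serpina3n, Itih3 and Itih4 show diclofenac livers above saline livers on each day, whereas the high A2m means rest on 1 liver on day 1 and 1 on day 14.

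Serpina3n, a secreted serpin whose targets include neutrophil cathepsin G and other granule proteases, lies on chromosome 12 from 104406646 to 104414334 (GRCm38). On day 1 its signals were 3709, 3408 and 4778 in the saline livers and 10422, 27887 and 11671 in the diclofenac livers. On day 3 they were 5001, 5535 and 4384 with saline and 22283, 15543 and 11561 with diclofenac. The groups did not overlap on either day, and the highest signals were those of diclofenac replicate 2 on day 1 and replicate 1 on day 3.

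On day 14 Serpina3n signals were 9413, 5908, 5203, 5175 and 3604 with saline and 23255, 18504, 49217, 13625 and 16137 with diclofenac. All 5 diclofenac livers again lay above all 5 saline livers. Group means were 16660.1 ± 9743 against 3965 ± 719.9 on day 1 (SD, n = 3), 16462 ± 5419.5 against 4973 ± 576 on day 3 (SD, n = 3) and 24148 ± 14457 against 5860.5 ± 2158 on day 14 (SD, n = 5).

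The log2 differences of Serpina3n were 1.94 (0.32, adjusted p = 0.144, limma) on day 1, 1.68 (0.32, adjusted p = 0.0631) on day 3 and 1.95 (0.34, adjusted p = 0.0788) on day 14. Over the 3 days together, the two-sided exact permutation test within days gave p = 1.98e-05, the smallest that its 100800 splits allow. Without the pair of livers that stand apart, the mean difference was 1.61 (adjusted p = 1.21e-05, limma), and those of days 1, 3 and 14 were 1.49 (adjusted p = 0.179), 1.68 (adjusted p = 0.00175) and 1.65 (adjusted p = 0.0105). The Serpina3 genes of this cluster are close copies of one another, and whether the probe set also takes up their transcripts was not tested.

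A2m, on chromosome 6 from 121636165 to 121679238, had low signals in 20 of 22 livers. On day 1 they were 7.53, 60.7 and 75.1 with saline and 78.6, 2725 and 70.7 with diclofenac. On day 3 they were 19.8, 21.3 and 99.5 with saline and 159.6, 100.3 and 58.4 with diclofenac. On day 14 they were 97.6, 10.9, 39.5, 90.9 and 31.9 with saline and 111, 113, 90009, 85.3 and 89.4 with diclofenac. High signals were thus found in diclofenac day 1 replicate 2 and, by far the highest, in diclofenac day 14 replicate 3, while the other diclofenac livers lay within or above the saline range of their day and none exceeded 159.6.

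A2m exceeded the median signal of its array in 11 of 22 livers, 3 of them among 11 saline livers. It met the signal filter of the single-day models only with diclofenac livers counted, so its single-day p-values are descriptions. Its log2 differences were 2.93, 1.49 and 3.22 on days 1, 3 and 14, with standard errors of 1.28, 1.28 and 1.72 (limma, adjusted p = 0.364, 0.717 and 0.522), and 2.55 for the mean (1.04, adjusted p = 0.203). The exact permutation test within days gave p = 0.00288 for the mean, two-sided. Without both high livers the mean difference was 1.31 (adjusted p = 0.171, limma). Most of these signals lie near or below the array median, so that the sizes of the log2 differences are uncertain.

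Those livers, picked for their A2m signal, were also the highest of their group for 6 of the 6 other measured members, as they were for 37.4% (diclofenac day 1 replicate 2) and 34.4% (diclofenac day 14 replicate 3) of all genes tested. In day 14 replicate 3, log2 signals exceeded the saline mean of the day by 3.14 for Serpina3n, 11.08 for A2m, 1.79 for Itih4, 1.58 for Itih3, 1.25 for Itih2, 1.04 for Ambp and 0.70 for Itih1. In day 1 replicate 2 they exceeded it by 2.83 for Serpina3n, 6.39 for A2m, 1.07 for Itih3 and 0.39 to 0.83 for the remaining members. In the other diclofenac livers Itih2 lay between -0.11 and 0.32 of the saline mean.

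**Figure D2:**
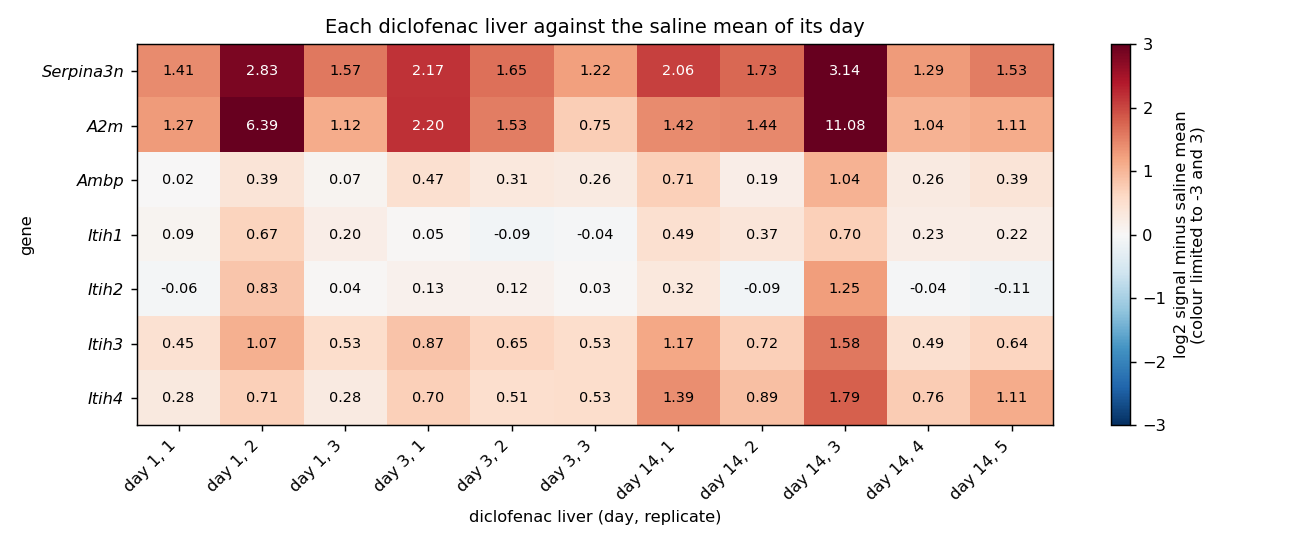
Log2 signal of each diclofenac liver (x axis, day and replicate) minus the mean log2 signal of the saline livers of its day, for the 7 measured members (y axis), written in each cell, with blue below 0 and red above. Day 1 replicate 2 and day 14 replicate 3 are darkest, at 6.39 and 11.08 for A2m, and the Serpina3n, Itih3 and Itih4 rows are above 0 in every liver.

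The summed signal of the neutrophil markers was high in the same livers, at 25793 in day 1 replicate 2 and 24442 in day 14 replicate 3. Such a sum of linear signals is weighted to the brightest genes of a list. Over the groups these sums, from 9 of 10 markers measured and none at 0, were 689 to 1160.5 with saline and 1653 to 25793 with diclofenac on day 1, 422 to 623 and 2121 to 3585 on day 3, and 339.6 to 562 and 797 to 24442 on day 14. Of the 7 neutrophil markers tested, 4 had an unadjusted p under 0.05 for the mean of the 3 days (limma). Of the 7, 3 rose, against 1.24% of all genes: S100a8 and S100a9, the subunits of calprotectin, and the granule protease Prtn3. Of these, Prtn3 entered the test through its high diclofenac livers. The macrophage and Kupffer cell sum, from 9 of 9 markers with none at 0, was 18179 to 29125 with saline and 30739 to 44373 with diclofenac on day 1, 22705 to 24971 against 26072 to 38014 on day 3, and 5038 to 12573 against 8297 to 35651 on day 14. None of its 9 markers passed, and 7 had an unadjusted p under 0.05 for the mean, against 2469 of 13340 genes tested (limma). Of the 7 stellate cell, 5 T and B cell, 3 cholangiocyte and 5 endothelial markers tested, none passed, and 1, 0, 1 and 1 had an unadjusted p under 0.05 (limma). The same 2469 of 13340 genes are the background of these counts. The cholangiocyte sum, from 4 of 5 markers with none at 0, was 308 to 495 with saline and 452 to 479.7 with diclofenac on day 1, 205 to 376 against 349 to 539 on day 3, and 248.6 to 334 against 321 to 2358 on day 14. Its log2 difference was 0.70 for the mean of the 3 days (two-sided exact permutation test within days, p = 0.000794), beside 0.59 (p = 0.00147) for the macrophage and Kupffer cell sum and 2.46 (p = 1.98e-05, the smallest possible) for the neutrophil sum. The part of these cells in the member differences was not tested. Transcript ends were compared as a sign of RNA quality: the excess of 3' over 5' signal in Gapdh and beta-actin control probes, in log2, averaged 0.74 with diclofenac and 0.62 with saline on day 14 (two-sided exact permutation test, p = 0.0238, n = 5) and its part was not tested either.

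Ambp, on chromosome 4 from 63143275 to 63154172, encodes 2 proteins in a single precursor, the protease inhibitor bikunin and the heme-binding alpha-1-microglobulin. On day 3 its signals were 36936, 36462 and 38372 with saline and 51625, 46220.5 and 44696 with diclofenac, and the groups did not overlap. On day 14 they were 52493, 46211, 47680.4, 45866 and 61165 with saline and 82152, 57436, 103326, 60365 and 66105 with diclofenac, where 2 diclofenac livers lay below the highest saline liver. On day 1 the ranges overlapped, from 38104 to 43442 with saline and from 41734 to 53842 with diclofenac.

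The log2 differences of Ambp were 0.16, 0.35 and 0.52 on days 1, 3 and 14 (adjusted p = 0.521, 0.224 and 0.316, limma), and 0.34 for the mean (standard error 0.09, adjusted p = 0.0667). Without both high livers the mean difference was 0.26 with an adjusted p of 0.0475 (limma), so that its side of the threshold depends on those arrays.

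Itih3 and Itih4, heavy chains of the hyaluronan-binding inter-alpha-trypsin inhibitor family, lie beside each other on chromosome 14, Itih3 from 30908572 to 30923787 and Itih4 from 30886476 to 30901986. Itih3 signals on day 1 were 20999, 21019 and 25784 with saline and 30706, 47299.5 and 32385 with diclofenac. On day 3 they were 22447, 21739.7 and 21806 with saline and 40075, 34607 and 31697 with diclofenac. On day 14 they were 32048, 28221, 25699.9, 23509 and 29855 with saline and 62254, 45699.9, 82746, 38844 and 43257 with diclofenac. On each day every diclofenac liver was above every saline liver, with the saline livers of day 3 lying close together at 21998 ± 391 (SD, n = 3). Itih3 differed by 0.68 on day 1 and again on day 3 and by 0.92 on day 14, on the log2 scale, with standard errors of 0.15, 0.15 and 0.20 (limma, adjusted p = 0.231, 0.104 and 0.127).

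Itih4 is cleaved by plasma kallikrein and, unlike the other heavy chains named here, lacks the site that joins them to bikunin. Its signals on day 1 were 38075, 36626 and 44096 with saline and 48011, 64379.8 and 47825 with diclofenac. On day 3 they were 32183, 37099 and 31961 with saline and 54827, 48007 and 48744 with diclofenac. The groups of both days were apart, on day 1 by a narrow margin. On day 14 the signals were 46716, 38224, 27749, 26415 and 33742 with saline and 88784, 62726, 117143, 57329 and 73018 with diclofenac, without overlap. Itih4 differed by 0.42, 0.58 and 1.19 on the log2 scale on days 1, 3 and 14, with standard errors of 0.12, 0.12 and 0.22 (limma, adjusted p = 0.267, 0.0884 and 0.0873).

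The day 14 difference of Itih4 exceeded the mean of the day 1 and day 3 differences by 0.69 (standard error 0.24, unadjusted p = 0.00853, adjusted p = 0.621, limma), which did not pass. No member passed the comparison of days 3 and 1 or that of day 14 with the earlier days, against 0.0% and 0.0225% of all genes (0.0% and 0.015% with a higher difference). For the mean of the 3 days the exact permutation test gave p = 1.98e-05 for Itih3 and for Itih4, two-sided and the smallest it allows. Without both high livers their mean differences were 0.64 (adjusted p = 0.00014) and 0.63 (adjusted p = 0.000896, limma).

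Itih1 and Itih2, the heavy chains that make up inter-alpha-trypsin inhibitor with bikunin, lie on chromosome 14 from 30929180 to 30943289 and on chromosome 2 from 10094591 to 10130683. Itih1 signals on day 14 ranged from 9561 to 10869 with saline and from 11941 to 16754 with diclofenac, without overlap. On day 3 they ranged from 12625 to 13363 and from 12258 to 13455, and on day 1 from 12177 to 14397 and from 13895 to 20855. The groups of days 1 and 3 thus overlapped, and the log2 differences were 0.32, -0.03 and 0.40 on days 1, 3 and 14 (adjusted p = 0.338, 0.968 and 0.236, limma), with a mean of 0.23 (standard error 0.07, adjusted p = 0.11).

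Itih2 signals ranged from 15747 to 17257 with saline and from 15956 to 29613 with diclofenac on day 1, from 15179 to 18128 and from 16821 to 17999.6 on day 3, and from 15838 to 27102 and from 18137 to 46553 on day 14. The groups overlapped on every day. Its mean log2 difference was 0.21 (standard error 0.16, adjusted p = 0.489, limma) and 0.04 (adjusted p = 0.904) without both high livers.

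**Figure D3:**
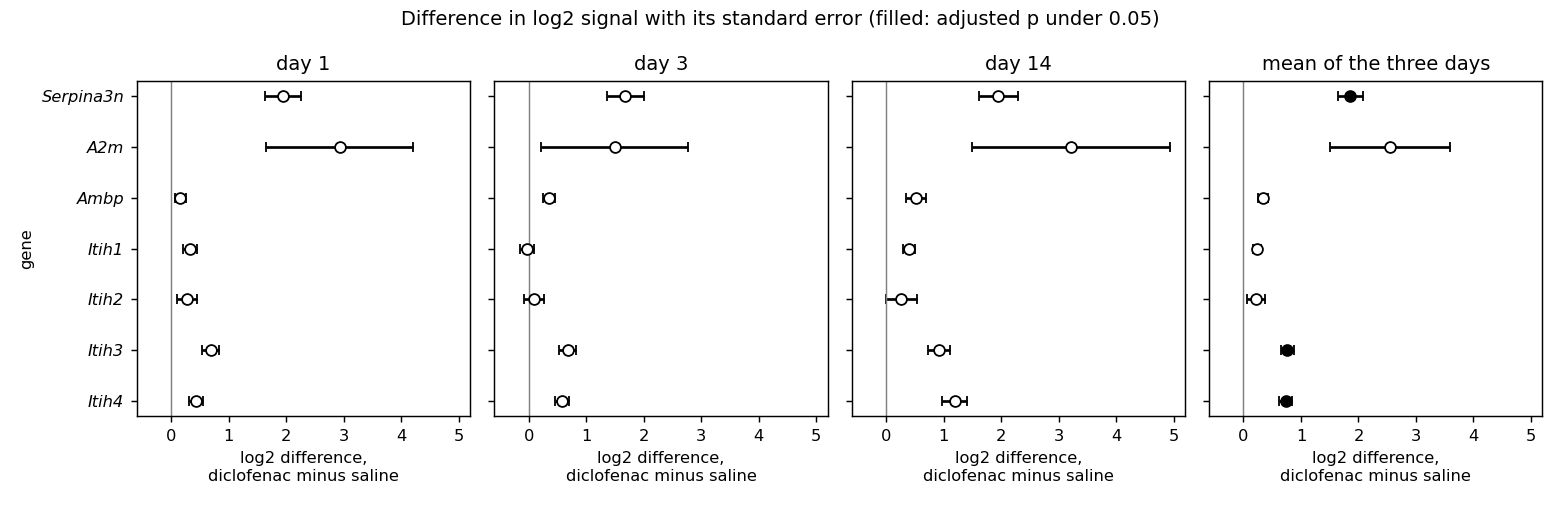
Difference in log2 signal, diclofenac minus saline (x axis), with its standard error, for the 7 measured members (y axis) on each day and for the mean of the 3 days, filled where the adjusted p was under 0.05. The filled points are Serpina3n at 1.86, Itih3 at 0.76 and Itih4 at 0.73 in the panel of the mean, and A2m has the widest errors.

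Ratios between heavy chains within an array were compared, since such a ratio is free of the array's scaling. The log2 ratio of Itih3 to Itih1 was higher with diclofenac than with saline by 0.53 (exact permutation test within days, two-sided, p = 1.98e-05, adjusted over 6 pairs p = 0.000119). The ratios of Itih4 to Itih1, Itih3 to Itih2 and Itih4 to Itih2 were higher by 0.50, 0.55 and 0.52 (exact permutation test, adjusted p = 0.000119, 0.000119 and 0.000714). Itih3 and Itih4 thus changed more than Itih1 and Itih2 in the same arrays, with values that varied between days. By day, the Itih4 to Itih1 difference was 0.10, 0.61 and 0.79 on days 1, 3 and 14.

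The ratio of Itih2 to Itih1 differed by -0.02 and that of Itih4 to Itih3 by -0.03 between treatments (exact permutation test, adjusted p = 0.823 and 0.809), which does not show that these pairs moved alike. The Itih4 to Itih3 difference was -0.26 on day 1 and 0.27 on day 14. Without both high livers the differences were 0.49 for Itih3 to Itih1, 0.49 for Itih4 to Itih1, 0.61 for Itih3 to Itih2 and 0.60 for Itih4 to Itih2.

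**Figure D4:**
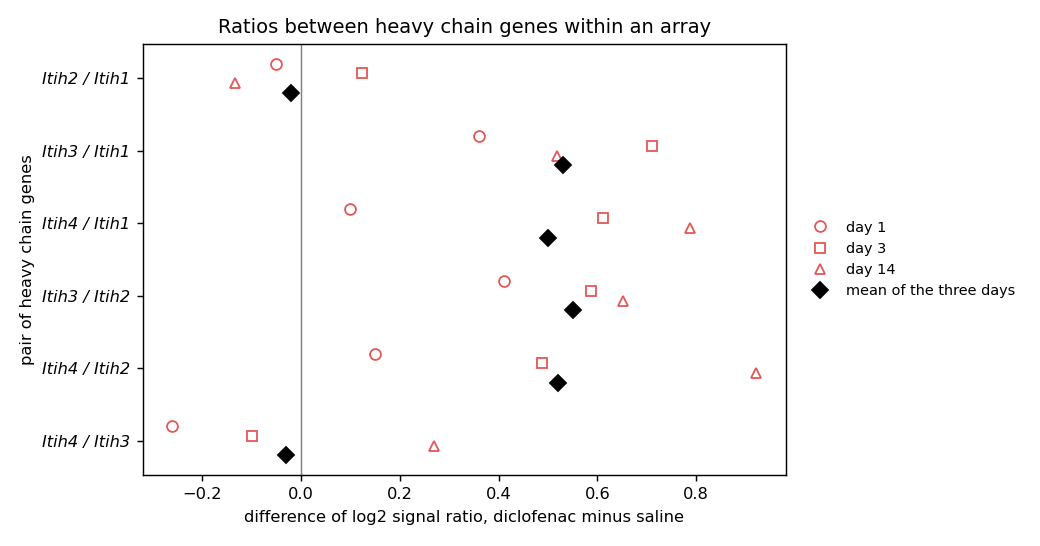
Difference of the within-array log2 signal ratio between diclofenac and saline livers (x axis) for 6 pairs of heavy chain genes (y axis), by day (open symbols) and for the mean of the 3 days (filled diamonds). The diamonds of Itih3 or Itih4 over Itih1 or Itih2 lie between 0.50 and 0.55, and those of Itih2 over Itih1 and Itih4 over Itih3 lie near 0.

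Among other plasma protease inhibitors, 6 of 32 tested genes rose and 1 fell for the mean of the 3 days, with 37 of 49 listed genes measured (limma). Of all genes, 1.24% passed with higher signal and 1.68% in either direction. Their median log2 difference was 0.12, against 0.73 over the 7 members. Serpina10, an inhibitor of factor Xa with protein Z as its cofactor, rose by 1.08 (standard error 0.21, adjusted p = 0.0103), from signals of 5089 to 6948 with saline to 8325 to 45631 with diclofenac on day 14. Kng1, the precursor of bradykinin and an inhibitor of cysteine proteases, rose by 0.46 (0.11, adjusted p = 0.0267), and Serping1, the C1 inhibitor of complement and kallikrein, by 0.43 (0.09, adjusted p = 0.0108). Serpinf2, which inhibits plasmin, rose by 0.38 (adjusted p = 0.0119), Hrg, a histidine-rich plasma glycoprotein, by 0.37 (adjusted p = 0.0251), and Fetub, a fetuin of the cystatin family named after its values were seen, by 0.35 (adjusted p = 0.00331).

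Timp3, a matrix-bound inhibitor of metalloproteinases, fell by 0.68 on the log2 scale (standard error 0.17, adjusted p = 0.0399, limma). Its diclofenac livers lay below all saline livers on each day, with signals of 183 to 376 against 382 to 658 on day 14. Pzp and Mug1, large protease traps related to A2m and named after their values were seen, had mean log2 differences of 0.27 (standard error 0.08, adjusted p = 0.0935) and 0.07 (0.06, adjusted p = 0.546), and neither passed.

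Of the proteases such inhibitors act on, 1 of 13 tested rose for the mean of the 3 days, against 1.24% of all genes (limma). All 17 of 17 listed were measured. The 1 that rose was Prtn3, proteinase 3 of neutrophil granules and also in the neutrophil marker list. Its log2 difference was 4.08 (standard error 0.66, adjusted p = 0.00268, limma). Prtn3 signals ranged from 5.4 to 42.9 with saline and from 15.3 to 579.9 with diclofenac on day 14, and overlapped there, whereas those of day 1 did not, with 14.3 to 76.8 against 278 to 4277. Saline signals of Prtn3 were near or below the array median, so the gene entered the test through the diclofenac livers where it is high. Its adjusted p is therefore a description, and the size of this rise is uncertain.

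Of 4 genes listed around the clearance of inhibitor and protease complexes, 1 passed for the mean, against 1.68% of all genes (limma). Lrp1, the endocytic receptor of alpha-2-macroglobulin and serpin complexes, rose by 0.48 (standard error 0.11, adjusted p = 0.0251, limma). Its diclofenac livers were above all saline livers on day 1 and overlapped with them on days 3 and 14. None of 8 tested genes of hyaluronan and heavy chain transfer passed (limma). For the mean, 1 of the 8 had an unadjusted p under 0.05, against 2469 of 13340 genes tested. In that list the mean differences were largest for Cd44, a hyaluronan receptor, at 0.65 (adjusted p = 0.174), and Has1, a hyaluronan synthase, at -0.29 (adjusted p = 0.766). Has1 exceeded the array median in 4 of 22 livers, so that the size of its difference is uncertain.

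In the signalling that induces acute phase genes, 2 of 19 tested genes rose for the mean of the 3 days, against 1.24% of all genes (limma). Il1r1, the interleukin-1 receptor, rose by 1.42 (standard error 0.26, adjusted p = 0.00728), and Stat3, the transcription factor of interleukin-6 signalling, by 0.91 (0.18, adjusted p = 0.0106). Both were highest in the high A2m livers among the diclofenac livers of days 1 and 14, at 2252 and 11751 for Il1r1 and 5137 and 10311 for Stat3. Those livers were the highest of their group for 37.4% and 34.4% of all genes tested. On day 3, where A2m did not exceed 159.6, diclofenac signals were 3162 to 5869 for Il1r1 and 3807 to 5365 for Stat3. Il6, the cytokine itself, and Socs3, a feedback inhibitor of STAT3 signalling, were named after their values were seen. Socs3 did not pass, and Il6, above its array median in diclofenac day 14 replicate 3 only, was not tested. The Il6 signal was 720.0 in that liver. It was 0.723 to 39.5 in the other diclofenac livers and 0.717 to 25.5 in the saline livers of that day. In diclofenac day 1 replicate 2 the Il6 signal was 55.3, below the median of its array, with 32.4 to 42.9 in the saline livers. Socs3 had a signal of 24014 in diclofenac day 14 replicate 3. It was 604 to 4247 in the other diclofenac livers and 218 to 1074 in the saline livers of day 14. In diclofenac day 1 replicate 2 the Socs3 signal was 10616. It was 4802 and 1534 in the other diclofenac livers and 1334 to 2282 in the saline livers of day 1. In diclofenac day 14 replicate 3, Il6ra, Lifr, Cebpa and Nr3c1 of this list were the lowest of their group. The other measured genes of the list were the highest, as were 34.4% of all genes tested. No gene of these 5 lists passed on a single day (limma). At an unadjusted p under 0.05 there were 12 of 32, 8 of 32 and 12 of 31 other plasma protease inhibitors on days 1, 3 and 14. Signalling genes were 7 of 18, 6 of 18 and 4 of 17, and target proteases were 1 of 12, 5 of 12 and 2 of 10. Clearance genes were 1 of 4, 0 of 4 and 2 of 3, and genes of hyaluronan and heavy chain transfer 2 of 8, 1 of 8 and 1 of 5. Over all genes the counts were 1674 of 12884, 1397 of 12884 and 1287 of 11884.

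The genes whose log2 signals were most like those of Serpina3n over the 22 arrays, among 13340, were Qsox1, a secreted disulfide oxidase, with Pearson's r = 0.94, C4bp, a complement inhibitor, with 0.94, Ibtk with 0.93, Itih3 with 0.93 and Chil3, a chitinase-like lectin, with 0.93. Most like Itih4 were Orm1, the acute phase protein orosomucoid, with r = 0.97, Fgl1, a fibrinogen-related hepatokine, with 0.93, Itih3 with 0.93, C4bp with 0.93 and Wfdc21 with 0.92. Most like A2m were Ddx28 with r = 0.91, Tmem87b with 0.90, Rpap3 with 0.89, Apaf1 with 0.89 and Slc13a5 with 0.89. These arrays share treatment, day and scaling, and A2m was high in 2 of them, so that the correlations are descriptions.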

How the data were processed

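Liver RNA of 22 mice was hybridised to 1 array each. The deposited values are intensities on a linear scale, which the authors computed with MAS5 and, per the study's methods, a global median normalization. In the files the mean of each array, after trimming 2% at either end, was 500.0. Of 45101 probe sets, 34958 have 1 gene symbol, 932 have several and 9211 have none in the platform annotation. Those with 1 symbol were kept, and a gene is represented by its brightest probe set on average. No scaling was added before taking log2. A gene had to exceed the median of the array in 3 or more arrays of a model, and was then tested with limma 3.58.1 under R 4.3.3 (eBayes with trend, two-sided). The 12 arrays of days 1 and 3 formed one model, the 10 of day 14 another, and all 22 gave the mean of the 3 days and the contrast of day 14 with earlier days. Exact permutation tests used all splits within days and cannot go below p = 0.1 with 3 against 3 livers, p = 0.00794 with 5 against 5, and 1.98e-05 over the 3 days.

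The members, 5 gene lists, 7 marker lists, tests and alternatives were chosen with earlier results of these data known. Most genes were named by a rule: all members, up to 6 genes a list that passed (or the 2 of largest mean difference where none did), and the 5 most like Serpina3n, Itih4 and A2m. Outside this rule, G6pc, S100a8 and S100a9 were named as cell type markers that passed. Fetub, Pzp, Mug1, Il6, Socs3, Il6ra, Lifr, Cebpa and Nr3c1 were named after their values were seen. Labels place each liver in its group, so that p-values measure the spread between these livers. Replicate numbers were not treated as a pairing of animals. Deviations from the group means correlated above 0.1 in 1 of 11 same-numbered pairs, which cannot exclude a pairing. Gene positions and upstream sequences are those of RefSeq. Permutations ran in scipy 1.17.1 and numpy 2.4.6, tables in pandas 2.3.3 under Python 3.11.15, and figures in matplotlib 3.10.9.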

Additional observations from a re-analysis of the deposited data

Results flagged for a closer look

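The A2m signal of diclofenac day 14 replicate 3, 90009, stood far from the other 4 livers of its group, the gap taking up 0.96 of the group's range on the log2 scale. Of 14 groups of 5 livers checked over the members, this was the only one in which a liver stood out in this way, and chance sets apart about 1 in 20 groups. These groups are not independent, because the members were read in the same livers, so the count does not set chance aside. The same liver had the highest signal of its group for 6 of the 6 other measured members, as it did for 34.4% of all genes tested. It also had a neutrophil marker sum of 24442 and, for Il6, named after its values were seen, a signal of 720.0.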

How the results depend on the processing

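For the mean of the 3 days, Serpina3n, Itih3 and Itih4 kept their direction and passed under all 34 alternatives, with differences of 1.61 to 1.94, 0.64 to 0.80 and 0.62 to 0.77 (largest adjusted p = 0.000933, 0.0079 and 0.0124, limma). The count of members that passed was 3 to 4, and the fourth was Ambp, whose adjusted p ranged from 0.0214 to 0.168. The cause of the changes given here was not tested.

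The count of genes that passed on day 3, 26 as reported, was 16 with no filter, 13 with the mean of all probe sets, 145 with each day on its own arrays, 1 with all 22 arrays in one model, 156 with array weights, 0 without the variance trend and 178 without both livers of highest A2m. Members that passed on day 3 were 1 with median centring, 3 with each day on its own arrays, 3 with array weights and 4 without both livers. On day 14 the count of genes, 0 as reported, was 3 with quantile normalization, 15 with median centring, 2 with the array median added before log2, 133 with all 22 arrays in one model, 109 with array weights, 5 when scaled to 4 hepatocyte genes and 123 without both livers. Members that passed on day 14 were 1 with median centring and 3 with all 22 arrays in one model, with array weights or without both livers.

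On day 1, 1 gene passed without the variance trend. The methods' t-test at its own threshold counted 151, 292 and 284 genes on days 1, 3 and 14, with 1, 2 and 3 members, and 0 genes on each day after Benjamini-Hochberg adjustment. For the mean, where 224 genes passed, the count was 484 with array weights, 128 when scaled to 4 hepatocyte genes and 365 without both livers. The hepatocyte scaling put the median difference of all genes at -0.16 on day 14. For day 14 minus the earlier days, where 3 genes passed, the count was 0 with no filter, median centring, every probe set on its own or no variance trend, 1 with quantile normalization, the mean of all probe sets or hepatocyte scaling, 14 with array weights and 11 without both livers.

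With the replicate number as a block, 3 genes passed on day 3, 1 on day 14 and 1 for day 14 minus the earlier days, and 167 for the mean, and the replicate block changed no call of a member. The numbers were not treated as a pairing of animals, and correlations of -0.11 to 0.11 between same-numbered livers cannot exclude one.

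Leaving out each array in turn gave 0 to 5 genes on day 1, 0 to 178 on day 3 (178 without diclofenac day 1 replicate 2, and 0 without saline day 3 replicate 3 or diclofenac day 3 replicate 1), 0 to 123 on day 14 (123 without diclofenac day 14 replicate 3), 108 to 536 for the mean (108 without diclofenac day 3 replicate 1, 536 without diclofenac day 14 replicate 3), 0 to 2 for day 3 minus day 1 and 0 to 17 for day 14 minus the earlier days. Members that passed were 0 to 4 on day 3 and 0 to 3 on day 14.

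Differences that did not pass changed sign in some settings. Without 1 array, Itih2 ranged from -0.010 to 0.44 on day 1 and Itih1 from -0.064 to 0.0031 on day 3. For day 3 minus day 1 the ranges were -0.52 to 0.19 for Serpina3n, -0.34 to 0.11 for Itih2, -0.12 to 0.19 for Itih3 and -2.34 to 0.29 for A2m. For day 14 minus the earlier days they were -0.16 to 0.36 for Serpina3n, -0.16 to 0.23 for Itih2 and -0.96 to 1.88 for A2m. With array weights the values were 0.12, 0.029 and 0.17 for Serpina3n, Itih2 and Itih3 for day 3 minus day 1, and -0.070 and -0.049 for Serpina3n and Itih2 for day 14 minus the earlier days. Without both livers, Itih2 was -0.010 on day 1, Serpina3n, Itih2, Itih3 and A2m were 0.19, 0.11, 0.19 and 0.29 for day 3 minus day 1, and Itih2 and A2m were -0.021 and -0.090 for day 14 minus the earlier days. For that contrast Itih3 was -0.0053 with quantile normalization and Itih2 -0.017 when scaled to 4 hepatocyte genes. Signals of A2m near or below the array median limit the size of its differences.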
